A study of Mus musculus with 8 samples.

Results

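HOX genes are described here in immortalized mouse embryonic fibroblasts (MEFs), by their level in each library and by their place in the HOX clusters. The 9 genes are Hoxa5, Hoxa6, Hoxa7, Hoxa9 and Hoxa10 of the HoxA cluster, Hoxb2, Hoxb3 and Hoxb4 of the HoxB cluster, and Hoxc13 of the HoxC cluster, out of 12528 genes in the table. They were picked by name because posterior Hoxa genes were seen to be low or undetected in Cav1KO cells, so the difference between the genotypes chose them and is given below as a description, with no test. The response to substrate stiffness played no part in that choice and was tested.

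RNA-seq compared MEFs from WT mice with MEFs from Cav1KO littermates, which lack caveolin-1, the main structural protein of caveolae in these cells. Both genotypes were seeded sparsely on polyacrylamide hydrogels coated with fibronectin that were either stiff or soft, and RNA was taken 24 h later. Genotype and gel gave 4 groups of 2 libraries each, named here by both, as in WT stiff. The comparison addresses how the response of cells to matrix stiffness depends on Cav1. All cells were immortalized, and the sources used here do not say how many lines stand for a genotype, so a difference between genotypes and a difference between cell lines cannot be told apart. The labels do not say that the libraries of a group came from separate cultures, so the p-values measure only the spread between these samples, which may be technical. No batch or date is given.

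HOX genes encode homeodomain transcription factors that give cells their place along the head-to-tail axis and, for some of them, along the limb. They sit in clusters in which the order of the genes matches the order of their expression along the body: genes at the 3′ end of a cluster act toward the head, and genes at the 5′ end toward the tail. Fibroblasts keep a HOX pattern that reflects where in the body they came from, also in culture. Polycomb proteins hold silent HOX genes off, Trithorax proteins hold active ones on, retinoic acid induces genes at the 3′ end, and the TALE proteins PBX and MEIS bind DNA together with HOX proteins.

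Values are TMM-normalized CPM, in which a gene's reads are set against the size of its library, itself adjusted by a scaling factor. The libraries held 17089836 to 19944952 reads over the genes in the table. In them 3 reads, the limit that a count of 0 allows, corresponded to 0.151 to 0.181 CPM. Such limits and the counting intervals below cover counting error only. The level of Cav1 followed the labels, from 949.8 to 1157 CPM in WT and from 0.0523 to 0.411 CPM in Cav1KO libraries. Of 15 fibroblast markers 13 were listed, and their summed level was 5738 to 16649 CPM over all 8 libraries. It was lowest in the Cav1KO stiff libraries (5738 and 6979 CPM) and highest in the Cav1KO soft libraries (16537 and 16649 CPM). The WT libraries lay between, at 10909 and 10995 CPM on stiff and 15258 and 15301 CPM on soft gels. By the limma test described below, 1 of the 13 was higher and 4 were lower in Cav1KO cells on both substrates, S100a4, Prrx1 and Twist1 among the lower. Markers of epithelial, endothelial and muscle cells (8, 6 and 6 genes) were not analysed here. The 2 listed macrophage markers of 8, Cd68 and Cd14, summed to 24.9 to 40.4 CPM in WT libraries and to 92.8 to 103.6 CPM in Cav1KO libraries, with Cd14 called higher on both substrates. The 3 listed neural markers of 6 (Sox2, Nes and Tubb3) summed to 45.9 to 117.8 CPM in WT libraries and to 32.1 to 42.0 CPM in Cav1KO libraries, with Sox2 and Nes called lower and Tubb3 higher. Sox2, a transcription factor of neural progenitors, ranged from 22.2 to 36.4 CPM in WT and reached at most 0.0523 CPM in Cav1KO libraries. The part of these markers in the HOX differences was not tested.

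The 5 Hoxa members lie on the minus strand of chromosome 6 (GRCm38, GENCODE M21). Toward the 5′ end of the cluster follow Hoxa5 (ENSMUSG00000038253, 52201754 to 52204587), Hoxa6 (ENSMUSG00000043219, 52206288 to 52208722), Hoxa7 (ENSMUSG00000038236, 52214491 to 52221854), Hoxa9 (ENSMUSG00000038227, 52223100 to 52231089) and Hoxa10 (ENSMUSG00000000938, 52231197 to 52240854). The 3′ ends of Hoxa5 and Hoxa10 are 29.4 kb apart. The Hoxb members lie on the plus strand of chromosome 11, in the order Hoxb4 (ENSMUSG00000038692, 96318267 to 96321638), Hoxb3 (ENSMUSG00000048763, 96323326 to 96347930) and Hoxb2 (ENSMUSG00000075588, 96350525 to 96354012). Hoxc13 (ENSMUSG00000001655) lies on the plus strand of chromosome 15 from 102921103 to 102928814. Cav1 itself is on chromosome 6 from 17306335 to 17341452, far outside the cluster.

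Along the HoxA cluster, the libraries of the genotypes overlapped for Hoxa5 and, over both substrates, for Hoxa6, and were far apart from Hoxa7 on. Hoxa7 was 8.98-fold lower in Cav1KO than in WT cells over both substrates, and the next genes toward the 5′ end, Hoxa9 and Hoxa10, were at 1 and 5 reads in the 4 Cav1KO libraries together. In bulk RNA, fewer cells that express a gene and less RNA per cell cannot be told apart. Over both substrates, the step between the similar and the low genes falls between Hoxa6 and Hoxa7, whose 3′ ends are 8.20 kb apart. Hoxa6 had few reads in both genotypes. On stiff gels alone it was 2.63-fold lower in Cav1KO cells (16 against 45 reads) with no overlap, so the place of the step is uncertain. On soft gels its genotypes overlapped.

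Hoxa5, which patterns the thoracic skeleton and the lung, was at 9.89 and 12.3 CPM on stiff and at 11.3 and 13.4 CPM on soft gels in WT cells, and at 11.2 and 8.93 CPM on stiff and 10.4 and 12.4 CPM on soft gels in Cav1KO cells. The genotypes overlapped on each substrate, and the WT mean over 4 libraries was 1.09 times the Cav1KO mean (11.7 ± 1.48 against 10.7 ± 1.45 CPM, SD, n = 4). Hoxa6, its neighbour, was at 1.21 and 1.197 CPM on stiff and at 0.604 and 0.537 CPM on soft gels in WT cells, and at 0.530 and 0.384 CPM on stiff and 0.889 and 0.566 CPM on soft gels in Cav1KO cells. These values rest on 45, 20, 16 and 28 reads per group. The WT stiff libraries stood above all others, and the remaining 3 groups lay close together.

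Hoxa7, a homeodomain factor of the trunk, was at 41.6 and 39.7 CPM on stiff and at 39.0 and 40.9 CPM on soft gels in WT cells, and at 4.77 and 4.93 CPM on stiff and 4.23 and 4.01 CPM on soft gels in Cav1KO cells. The lowest WT library was far above the highest Cav1KO library, and the ratio of the means was 8.38 on stiff and 9.69 on soft substrates. With 81 to 90 reads in each stiff and 78 to 81 reads in each soft library, Hoxa7 was still detected in every Cav1KO library. It shares 18.4% of its 60-nt windows with the antisense gene Hoxaas3, which overlaps its 3′ end on the other strand, so its level is uncertain to the extent that the counting did not separate strands. Hoxaas3 was at only 0.753 to 1.82 CPM over all 8 libraries.

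Hoxa9, a factor of blood progenitors and of the posterior trunk and limb, was at 9.29 and 9.75 CPM on stiff and at 7.73 and 8.33 CPM on soft gels in WT cells. In the Cav1KO libraries it was at 0 and 0.0548 CPM on stiff and at 0 CPM in both soft libraries, that is 1 read against 639 in WT. The ratio of WT to Cav1KO was 335 on stiff substrates, with a 95% counting interval of 59.7 to 13266. On soft substrates, with 0 reads in Cav1KO cells, the lower end of the counting interval was 83.6. Set against the limit of 3 reads over the group, with the WT count taken as exact, the ratio there was 103. Hoxa10, needed for the uterus and the hindlimb, was at 14.7 and 17.9 CPM on stiff and at 17.0 and 18.9 CPM on soft gels in WT cells. Its Cav1KO values were 0.0588 and 0 CPM on stiff and 0.0523 and 0.154 CPM on soft substrates, or 5 reads against 1241. The pooled ratio of WT to Cav1KO was 252, with a counting interval of 108 to 778. No Cav1KO library had more than 3 reads of either gene, and 1.78% of the 12494 genes tested were at 3 reads or fewer in each Cav1KO library.

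The promoters of Hoxa5, whose levels overlapped between the genotypes, and of Hoxa7, Hoxa9 and Hoxa10, which were low in Cav1KO cells, are printed for comparison from RefSeq (GRCm38.p6), as 250 bases before and 50 bases after each start, 5′ to 3′ on the minus strand of chromosome 6. Capitals mark CpG dinucleotides, the sites of DNA methylation. Of the 9 genes, 6 matched the RefSeq table, with 2 starts for Hoxa10. Hoxb2, Hoxb3 and Hoxc13 did not match. The windows are chr6:52204538-52204837 for Hoxa5, chr6:52218524-52218823 for Hoxa7, chr6:52227321-52227620 for Hoxa9, and chr6:52240805-52241104 and chr6:52234890-52235189 for the starts of Hoxa10.
Hoxa5: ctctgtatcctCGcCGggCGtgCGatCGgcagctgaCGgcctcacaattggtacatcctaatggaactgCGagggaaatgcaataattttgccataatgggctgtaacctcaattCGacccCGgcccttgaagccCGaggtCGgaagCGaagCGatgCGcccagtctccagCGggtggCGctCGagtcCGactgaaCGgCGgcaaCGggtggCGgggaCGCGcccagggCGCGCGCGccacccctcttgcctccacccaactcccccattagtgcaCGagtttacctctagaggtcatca
Hoxa7: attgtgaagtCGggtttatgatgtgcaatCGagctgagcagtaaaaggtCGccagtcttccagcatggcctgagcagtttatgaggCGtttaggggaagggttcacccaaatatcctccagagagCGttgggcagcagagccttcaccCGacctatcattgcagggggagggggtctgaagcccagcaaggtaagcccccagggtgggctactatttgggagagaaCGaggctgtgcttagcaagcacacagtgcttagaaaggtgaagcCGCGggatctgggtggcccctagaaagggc
Hoxa9: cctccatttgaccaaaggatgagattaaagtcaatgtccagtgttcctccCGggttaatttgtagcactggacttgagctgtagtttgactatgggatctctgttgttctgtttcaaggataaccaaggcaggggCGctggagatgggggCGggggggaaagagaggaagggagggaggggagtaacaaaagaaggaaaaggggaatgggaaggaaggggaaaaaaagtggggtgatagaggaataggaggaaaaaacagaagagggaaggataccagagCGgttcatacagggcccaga
Hoxa10 start 1: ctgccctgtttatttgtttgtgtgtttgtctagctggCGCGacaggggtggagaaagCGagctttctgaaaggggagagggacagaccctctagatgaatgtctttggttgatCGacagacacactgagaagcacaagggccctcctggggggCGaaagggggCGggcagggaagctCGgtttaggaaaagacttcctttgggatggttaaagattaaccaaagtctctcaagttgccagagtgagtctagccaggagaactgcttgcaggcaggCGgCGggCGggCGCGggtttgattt
Hoxa10 start 2: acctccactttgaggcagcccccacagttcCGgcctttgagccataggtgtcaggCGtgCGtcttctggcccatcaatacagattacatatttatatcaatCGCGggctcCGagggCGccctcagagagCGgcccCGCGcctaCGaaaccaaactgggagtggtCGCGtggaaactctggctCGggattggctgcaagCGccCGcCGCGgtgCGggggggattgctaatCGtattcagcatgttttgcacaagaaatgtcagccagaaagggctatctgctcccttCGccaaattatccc

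The Hoxa5 window held 29 CpG and that of Hoxa6 26, against 9 in Hoxa7, 4 in Hoxa9, and 12 and 21 at the starts of Hoxa10, with 14 in Hoxb4 and a median of 7 over 32851 promoters. The windows of Hoxa7 and Hoxa9 and the second window of Hoxa10 lie inside the longer genes of the GENCODE annotation. Those of Hoxa5, Hoxa6 and Hoxb4 and the first of Hoxa10 cover the annotated start of the gene, so the CpG numbers compare unlike positions. On both strands, no match to the PBX-HOX motif TGATTNAT, held by 3.22% of all promoters, was found in these letters of the 7 windows. The TATA motif TATAAA, held by 13.6% of promoters, occurred once, on the opposite strand of the second Hoxa10 window. The CCAAT box CCAAT, held by 37.4%, occurred once each in Hoxa5, Hoxa6 and the second Hoxa10 window, and the GC box GGGCGG, held by 35.7%, occurred 5 times in Hoxa6, once in Hoxa9 and 2 times in the first Hoxa10 window. A match is a description of the sequence only, and neither binding nor methylation was measured.

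**Figure D1:**
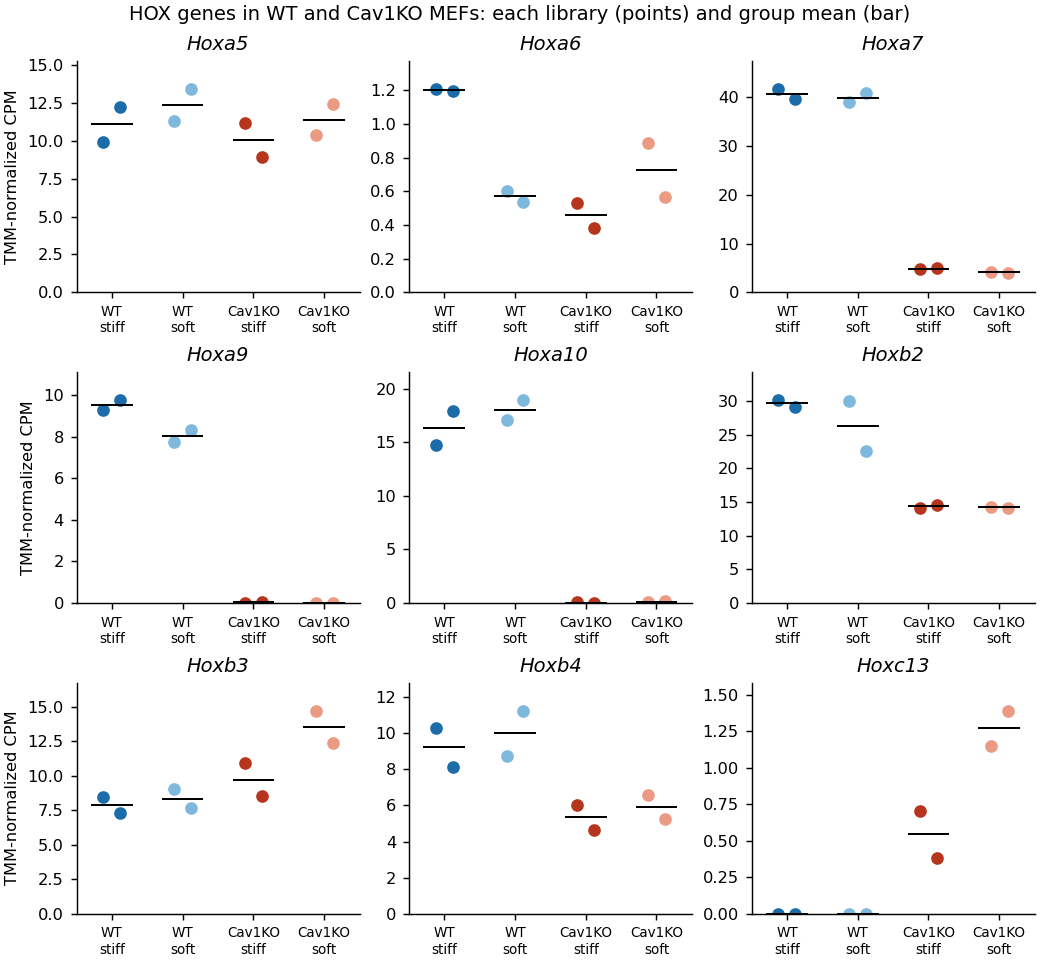
TMM-normalized CPM (y axis, from 0, with its own scale for each gene) of the 9 HOX genes in the 4 groups (x axis), with a point for each of 2 libraries and a bar for their mean. Hoxa7, Hoxa9, Hoxa10, Hoxb2 and Hoxb4 are lower in all 4 Cav1KO than in all 4 WT libraries, Hoxc13 is at 0 in WT, and the genotypes overlap for Hoxa5, Hoxa6 and Hoxb3.

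The Hoxb members differed less, and not all in the same direction. Over both substrates Hoxb2 was 1.96-fold and Hoxb4 1.71-fold lower in Cav1KO cells, and Hoxb3, which lies between them, was higher on each substrate. Hoxb2, a gene of hindbrain segments, was at 30.1 and 29.2 CPM on stiff and at 30.0 and 22.6 CPM on soft gels in WT cells, and at 14.1 and 14.6 CPM on stiff and 14.3 and 14.1 CPM on soft gels in Cav1KO cells. The 4 Cav1KO libraries lay within a narrow range, below every WT library, and the WT mean was 2.07 times higher on stiff and 1.85 times higher on soft substrates.

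Hoxb4, known for its role in blood stem cells, was at 10.3 and 8.15 CPM on stiff and at 8.76 and 11.2 CPM on soft gels in WT cells, and at 6.002 and 4.66 CPM on stiff and 6.59 and 5.25 CPM on soft gels in Cav1KO cells. No Cav1KO library reached the lowest WT library, and the ratio of the means was 1.73 on stiff and 1.69 on soft substrates. Hoxb3, another hindbrain gene, was at 8.49 and 7.30 CPM on stiff and at 9.002 and 7.63 CPM on soft gels in WT cells, and at 10.9 and 8.49 CPM on stiff and 14.7 and 12.4 CPM on soft gels in Cav1KO cells. Its Cav1KO mean was 1.23 times the WT mean on stiff substrates, where the groups nearly touched, and 1.63 times on soft substrates, where they were apart. Over all 8 libraries the genotypes overlapped.

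The balance within the HoxB cluster can be read inside each library, where depth and scaling cancel. The ratio of Hoxb3 to Hoxb2 was 0.250 to 0.337 in WT and 0.583 to 1.03 in Cav1KO libraries, and that of Hoxb3 to Hoxb4 was 0.679 to 1.03 in WT and 1.81 to 2.36 in Cav1KO libraries. Both ratios were higher in each Cav1KO library than in any WT library. Hoxb3 shares 51.0% and Hoxb2 25.7% of their 60-nt windows with Hoxb3os, an antisense gene that covers parts of both, so their levels and both ratios are uncertain where strands were not separated. Hoxb3os was at 1.25 to 3.44 CPM in WT and at 1.36 to 4.01 CPM in Cav1KO libraries. The windows of Hoxb4, Hoxa5, Hoxa6, Hoxa9, Hoxa10 and Hoxc13 were shared with no other listed gene.

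Hoxc13, a gene of hair follicles and nails and of the tail end of the axis, was the one member detected in Cav1KO cells only. It had 0 reads in all 4 WT libraries and was at 0.706 and 0.384 CPM in Cav1KO stiff and at 1.15 and 1.39 CPM in Cav1KO soft libraries, from 12, 7, 22 and 27 reads. The 95% counting intervals of the ratio of Cav1KO to WT had lower ends of 4.96 on stiff and 11.7 on soft substrates. Set against the limit of 3 reads over the group, with the Cav1KO count taken as exact, the ratios were 6.73 and 14.9. All 4 Cav1KO libraries were above all 4 WT libraries, at a level near 1 CPM. For comparison, 0.8% of the genes tested were at 3 reads or fewer in each WT library.

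**Figure D2:**
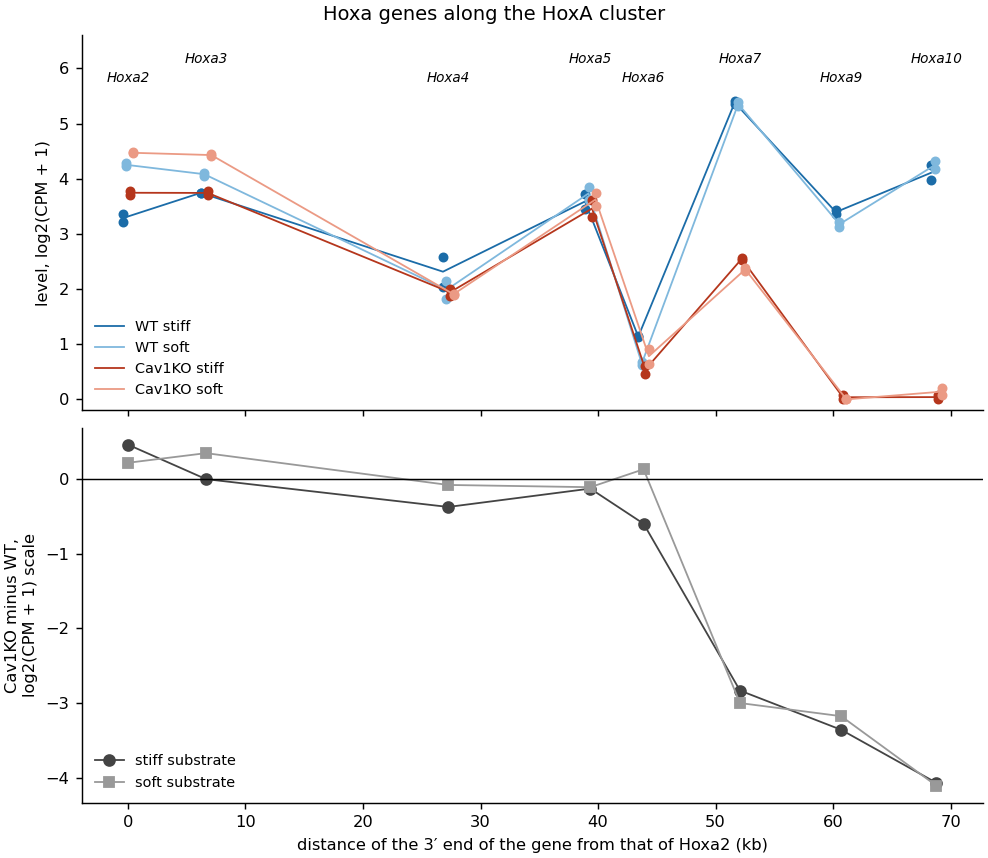
Level of 8 protein-coding Hoxa genes on the log2(CPM + 1) scale (upper panel, 1 point per library, lines through the group means) and difference of Cav1KO minus WT means on that scale (lower panel, 1 line per substrate), against the distance of their 3′ ends from that of Hoxa2 in kb. The differences lie between -0.60 and 0.46 from Hoxa2 to Hoxa6 and between -4.10 and -2.83 from Hoxa7 to Hoxa10.

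Other Hoxa genes place these members in their cluster. Hoxa4 was at 2.53 to 5.02 CPM in WT and at 2.69 to 3.001 CPM in Cav1KO libraries, so the genotypes overlapped. Hoxa2 was higher in both Cav1KO libraries of each substrate, at 12.1 and 12.7 CPM against 8.27 and 9.24 CPM on stiff and at 21.02 and 21.3 CPM against 17.7 and 18.4 CPM on soft gels, and overlapped only over both substrates together. Hoxa3 overlapped on stiff gels and was higher in the Cav1KO soft libraries, at 20.2 and 20.9 CPM against 15.6 and 16.3 CPM. On the log2(CPM + 1) scale, the difference of Cav1KO minus WT on stiff and soft substrates was -0.13 and -0.11 for Hoxa5, -0.60 and 0.13 for Hoxa6, -2.83 and -2.998 for Hoxa7, -3.36 and -3.17 for Hoxa9, and -4.07 and -4.10 for Hoxa10. The values of Hoxa9 and Hoxa10 on this scale depend on the pseudocount of 1, since their Cav1KO levels were at the limit of detection. That of Hoxa6 on stiff depends on it too, at -0.83 with a pseudocount of 0.5 and -0.18 with 5. In the HoxB cluster, Hoxb13, 124 kb from Hoxb4 toward the 5′ end, was at 1.08 to 1.77 CPM in WT and at 0.103 to 0.118 CPM in Cav1KO libraries, 111 reads against 8, a ratio of 14.1 with a counting interval of 6.91 to 33.5. The 5′ genes of both clusters that are listed were the lowest in Cav1KO cells relative to WT, whereas the 5′ gene Hoxc13 was higher. Further genes of the HoxB, HoxC and HoxD clusters were not analysed here.

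Counted over all members, 5 of 9 were lower in all 4 Cav1KO than in all 4 WT libraries (Hoxa7, Hoxa9, Hoxa10, Hoxb2 and Hoxb4), 1 was higher (Hoxc13) and 3 overlapped. Among the 12494 genes tested, 17.1% were lower and 14.3% higher by the same rule. A mean at least 4-fold lower was found for 3 members (Hoxa7, Hoxa9 and Hoxa10) and for 4.46% of the genes tested, and at least 4-fold higher for 1 member (Hoxc13) and for 3.77%. The members were picked on this difference, so nothing is read from these counts. All 9 passed the filter of at least 1 CPM in at least 2 libraries, but Hoxa6 did so only in WT stiff, Hoxc13 only in Cav1KO soft, and Hoxa9 and Hoxa10 only in WT libraries.

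Because lengths differ, levels were compared between genes as CPM per kb of transcript, where a length of the annotation stands for the isoforms in these cells. In WT cells, Hoxa7 was the highest at 20.05 CPM per kb (± 0.586, SD, n = 4), above Hoxb2 at 17.2, and both were above Hoxa10 at 6.68 and Hoxa5 at 6.24, whose libraries overlapped. Below them came Hoxb4 at 3.74, Hoxa9 at 2.72 and Hoxb3 at 2.54, of which the last 2 overlapped, then Hoxa6 at 1.01 and Hoxc13 at 0. Cav1KO cells had another order. Hoxb2 led at 8.77 CPM per kb (± 0.129), followed by Hoxa5 at 5.71 and Hoxb3 at 3.64, then by Hoxa7 at 2.23 and Hoxb4 at 2.19, which overlapped. Hoxa6 at 0.677 and Hoxc13 at 0.369 overlapped as well, and Hoxa10 and Hoxa9 came last at 0.0259 and 0.00425 CPM per kb. Inside each library, the CPM of Hoxa7 was 3.06 to 4.20 times that of Hoxa5 in WT and 0.324 to 0.552 times that of Hoxa5 in Cav1KO cells. The summed level of the 5 Hoxa members was 75.6 to 82.1 CPM in WT and 14.3 to 17.1 CPM in Cav1KO libraries.

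Few of these genes passed the test for stiffness. In Cav1KO cells Hoxb3 fell on stiff substrates, to 0.716 times its soft level. Hoxa6 in WT cells, at 0.571 ± 0.0473 CPM on soft and 1.201 ± 0.00579 CPM on stiff substrates (SD, n = 2), and Hoxc13 in Cav1KO cells, at 0.429 times its soft level on stiff substrates, also passed, but each had entered the fit only through the group in which it was higher. Hoxa7 in either genotype and Hoxa9 and Hoxa10 in WT cells did not pass. With 2 libraries in a group, limma on log2(CPM + 1) with Benjamini-Hochberg adjustment over 12494 genes called 1 of 8 members in WT cells, where 48.4% of all genes were called (22.1% higher and 26.3% lower on stiff). In Cav1KO cells it called 2 of 7 members, against 56.1% of all genes (27.9% higher and 28.2% lower). Hoxb3 was the 1 call among these that is not tied to the filter on low values, so the counts are given as a description. Hoxc13 in WT cells and Hoxa9 and Hoxa10 in Cav1KO cells, at 3 reads or fewer in every library, were not counted. The median size of the stiffness effect on the log2(CPM + 1) scale was, in WT cells, 0.14 over the members and 0.34 over all genes. In Cav1KO cells it was 0.19 over the members and 0.41 over all genes. This scale understates the change of low genes such as Hoxa6 and Hoxc13, so these medians compare genes of unlike level.

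Stiff minus soft, Hoxa6 in WT cells stood at 0.49 ± 0.16 on the log2(CPM + 1) scale (SE), with a limma adjusted p of 0.0319. It rests on 45 against 20 reads, and the call was lost without any single WT library (limma adjusted p 0.0760 to 0.101), with edgeR on the recovered reads (0.0591) and with DESeq2 (0.295). Without the filter the limma adjusted p was 0.0318. Hoxa6 reached 1 CPM only in the WT stiff libraries. Leaving out the filter does not undo this, as 12494 of 12528 genes passed it. In Cav1KO cells the difference of Hoxa6 was -0.24 ± 0.16, with a limma adjusted p of 0.224. The effects in the genotypes differed by 0.73 ± 0.22 (WT minus Cav1KO), with a limma adjusted p of 0.0655, which misses the threshold.

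Hoxb3 fell by 0.45 ± 0.16 on the log2(CPM + 1) scale on stiff substrates in Cav1KO cells (limma adjusted p = 0.0430). In WT cells its difference was -0.07 ± 0.16 (limma adjusted p = 0.761), and the difference between the effects, 0.38 ± 0.23, did not pass (adjusted p = 0.263). The call in Cav1KO cells was kept with edgeR (0.0422) and lost with DESeq2 (0.0923), with centring on library medians (0.0744) and with quantile normalization (0.238). It was also lost without any single library except Cav1KO stiff replicate 1, with a limma adjusted p of 0.0516 to 0.0535 without a WT library, 0.226 without Cav1KO stiff replicate 2, 0.236 without Cav1KO soft replicate 1 and 0.0632 without Cav1KO soft replicate 2. The antisense Hoxb3os, with which it shares windows, differed by 0.13 ± 0.34 in Cav1KO cells (limma adjusted p = 0.771).

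Stiff minus soft, Hoxc13 in Cav1KO cells stood at -0.56 ± 0.16 on the log2(CPM + 1) scale (limma adjusted p = 0.0171, and 0.0170 without the filter), with 19 reads on stiff and 49 on soft. It reached 1 CPM only in the Cav1KO soft libraries, and leaving out the filter does not undo this. The call was lost with edgeR (0.0787), DESeq2 (0.361) and quantile normalization (0.201), and without Cav1KO stiff replicate 2 (0.119) or Cav1KO soft replicate 2 (0.0969). With 0 reads in WT cells on both substrates, no comparison of its stiffness response between the genotypes was made.

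The other members did not pass in either genotype, except with quantile normalization, under which Hoxa9 in WT cells (limma adjusted p = 0.0499) and Hoxa7 in Cav1KO cells (0.00458) did. In WT cells, the stiffness difference and its 95% interval on the log2(CPM + 1) scale were 0.02 (-0.22 to 0.27) for Hoxa7, 0.22 (-0.09 to 0.53) for Hoxa9 and -0.14 (-0.49 to 0.21) for Hoxa10. Each of these intervals includes 0, and the bounds give the sizes of effect that these libraries leave possible. For Hoxa5, Hoxb2 and Hoxb4 the differences were -0.15 (-0.53 to 0.23), 0.18 (-0.13 to 0.48) and -0.10 (-0.53 to 0.33). In Cav1KO cells they were -0.16 (-0.55 to 0.22) for Hoxa5, 0.19 (-0.05 to 0.43) for Hoxa7, 0.01 (-0.29 to 0.32) for Hoxb2 and -0.13 (-0.56 to 0.30) for Hoxb4. The difference between the stiffness effects passed for 0 of 6 members by limma and edgeR and for 0 of 5 by DESeq2, which gave no adjusted p for Hoxa6, with 1 member (Hoxa6) at an unadjusted limma p under 0.05, and for 10.5% of all genes by limma.

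**Figure D3:**
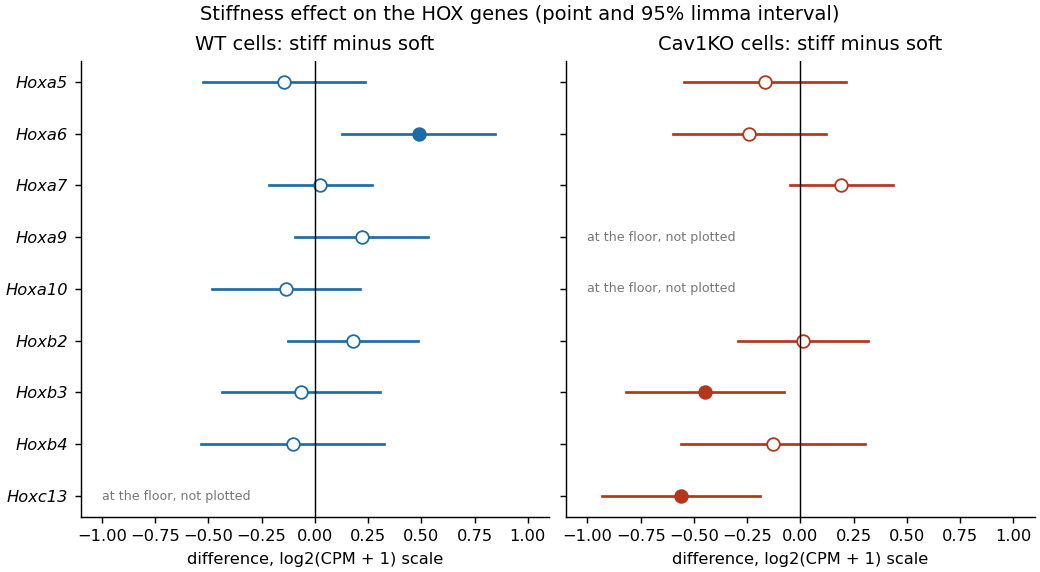
Difference of stiff minus soft means on the log2(CPM + 1) scale (x axis) for the HOX genes (y axis) in WT cells (left) and Cav1KO cells (right), with the limma 95% interval as a line and filled points where the adjusted p was under 0.05. The filled points are Hoxa6 in WT cells, to the right of 0, and Hoxb3 and Hoxc13 in Cav1KO cells, to the left of 0. Hoxa6 and Hoxc13 had entered the fit only through the group in which they were higher. Genes at 3 reads or fewer in every library of a genotype are not plotted.

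At the 3′ end of the HoxA cluster, 2 genes that are no members fell on stiff substrates in both genotypes. Hoxa2 fell on stiff substrates by 0.97 ± 0.11 in WT cells and by 0.72 ± 0.11 in Cav1KO cells on the log2(CPM + 1) scale (limma adjusted p = 0.000232 and 0.000663). Hoxa3 fell by 0.34 ± 0.10 and by 0.69 ± 0.10 (limma adjusted p = 0.0257 and 0.000666). Its call in WT cells passed in 11 of 19 settings and had an adjusted p of up to 0.132 in the others, DESeq2 included. Hoxaas2, a noncoding gene beside Hoxa3 with which it shares windows, fell by 0.85 ± 0.14 and by 0.63 ± 0.14 (limma adjusted p = 0.00138 and 0.00500), the latter call in 16 of 18 settings. Hoxa4 and Hoxb13 did not pass in either genotype. Hotairm1, a noncoding gene of the HoxA cluster, rose by 0.58 ± 0.21 on stiff substrates in Cav1KO cells (limma adjusted p = 0.0410), a call that passed in 12 of 18 settings and had an adjusted p of up to 0.261 in the others.

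Genes known to regulate or work with HOX genes, and genes that flank the clusters, were compared between the genotypes in the same fit. Over 6 lists, 25 of 120 genes tested were higher and 21 lower in Cav1KO cells on both substrates, against 15.7% and 18.9% of all genes. Among 9 TALE cofactors, 1 was higher and 1 lower. Meis1, which binds DNA with posterior HOX proteins, was at 11.2 to 17.2 CPM in WT and at 31.6 to 46.2 CPM in Cav1KO libraries, higher by 1.38 ± 0.11 on stiff and 1.30 ± 0.11 on soft substrates (limma adjusted p = 1.38e-05 and 1.89e-05). Pbx3, another partner of HOX proteins, was lower by the test, with differences of -0.54 ± 0.13 and -0.46 ± 0.13 (limma adjusted p = 0.00718 and 0.0146).

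Among 27 Polycomb genes, 4 were higher and 2 lower. Cbx6, a chromobox subunit of the complex that reads the Polycomb mark, was at 138.1 to 146.4 CPM in WT and at 348.5 to 388.4 CPM in Cav1KO libraries, and Ring1, a ubiquitin ligase subunit of the same complex, was higher by 0.83 ± 0.10 on stiff and 0.60 ± 0.10 on soft substrates (limma adjusted p = 0.000239 and 0.00129). Of 17 Trithorax and demethylase genes tested, 1 was higher (Men1, a subunit of MLL complexes, by 0.25 ± 0.08 and 0.24 ± 0.08, limma adjusted p = 0.0259 and 0.0287) and 1 lower. The shares of these 3 lists that were called on both substrates, 22.2%, 22.2% and 11.8%, were below the 34.5% of all genes, while those of the next lists, retinoic acid and CDX genes, axis and limb factors and cluster flanks, were 54.5%, 67.7% and 36%.

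Of 11 retinoic acid and CDX genes tested, 3 were higher and 3 lower. Crabp1, a cytoplasmic retinoic acid binding protein, was at 19.6 to 27.9 CPM in WT libraries and at 1 read or fewer in each Cav1KO library. Cyp26b1, which degrades retinoic acid, was lower by the test, at 18.8 to 21.2 CPM in WT and 5.23 to 7.18 CPM in Cav1KO libraries, and so was Rdh10, which makes its precursor, at 36.2 to 66.0 and 15.6 to 34.8 CPM. Of 31 other transcription factors of body axis and limb, 10 were higher and 11 lower. Zic1 and En1, markers of dorsal and midbrain-hindbrain or limb identity, were at 33.5 to 42.7 and 14.3 to 18.4 CPM in WT and at 3 reads or fewer in each Cav1KO library. Foxf1, a factor of lateral plate and visceral mesoderm, was at 11.4 to 13.7 CPM in WT and 75.1 to 89.6 CPM in Cav1KO libraries. The lists were written with earlier results of these data known, so their counts are a description.

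**Figure D4:**
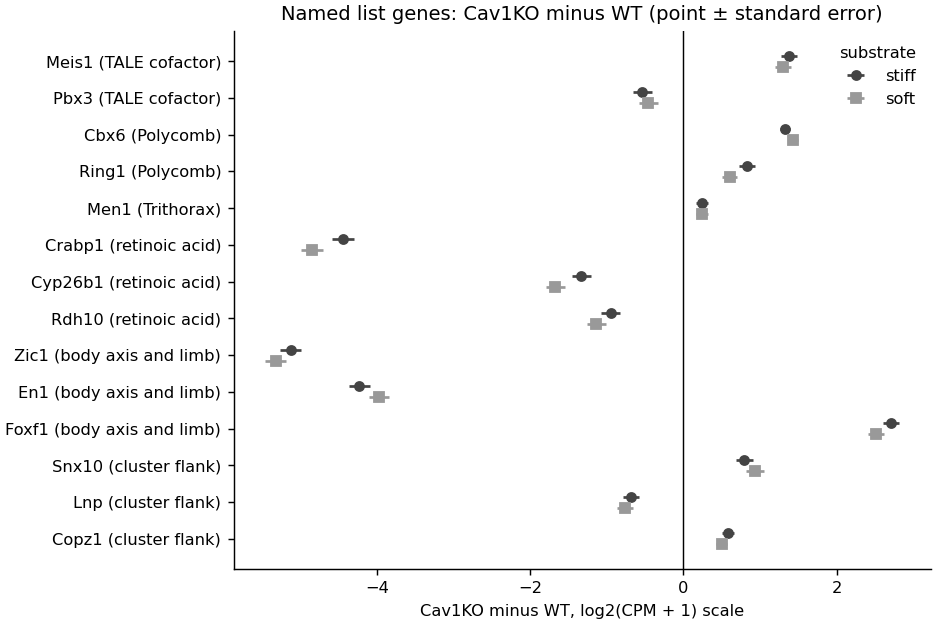
Difference of Cav1KO minus WT means on the log2(CPM + 1) scale (x axis) for genes of the 6 lists named by a fixed rule (y axis), on stiff (circles) and soft (squares) substrates, with standard errors from limma. Meis1, Cbx6, Ring1, Men1, Foxf1, Snx10 and Copz1 lie to the right of 0 on both substrates and the other 7 genes to the left. The values of Crabp1, Zic1 and En1 depend on the pseudocount, because these genes were at 3 reads or fewer in each Cav1KO library.

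Genes that flank the HOX clusters differed in both directions. Of 25 flanking genes tested, 6 were higher and 3 lower in Cav1KO cells on both substrates. On the side of HoxA, Snx10, a sorting nexin 565 kb from the cluster, was at 23.6 to 31.7 CPM in WT and at 43.5 to 58.8 CPM in Cav1KO libraries. It was higher by 0.79 ± 0.11 and 0.94 ± 0.11 (limma adjusted p = 0.000487 and 0.000171). Beside HoxC, Copz1, a coat protein of transport vesicles, was higher by 0.58 ± 0.07 and 0.50 ± 0.07 (limma adjusted p = 0.000247 and 0.000535). Lnp beside HoxD was lower, at 30.9 to 49.5 CPM in WT and 19.0 to 29.6 CPM in Cav1KO libraries.

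By likeness of profile, measured as the root mean square distance between centred log2(CPM + 1) values over the 8 libraries, 5 genes were closest to the mean of the Hoxa members. These were Chn1 (distance 0.05), Pthlh (0.07), Tspan12 (0.08), Plod2 (0.12) and Eda2r (0.13), set against a standard deviation of 1.06 of the profile itself. Chn1 ranged from 3.14 to 3.76 CPM in WT and reached at most 0.0588 CPM in Cav1KO libraries, and Plod2, an enzyme that hydroxylates collagen lysines, was at 81.3 to 97.8 and 18.0 to 20.8 CPM. Closest to the mean of the Hoxb members were Dync1i2, A230046K03Rik, Qrich1, Kdm1a and Srp54b, with distances of 0.05 to 0.07 against a standard deviation of 0.22. Pthlh and Tspan12 reached at most 0 and 0.0514 CPM in Cav1KO libraries, so their distances and that of Chn1 depend on the pseudocount. Each mean combines members that differed unlike between the genotypes. The members were picked on that difference, so genes near their mean share it by construction, and nothing is read from these names.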

How the data were processed

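RNA-seq libraries of immortalized MEFs were analysed, 2 for each of 4 groups taken from the genotype and substrate in the labels. The authors prepared poly(A) RNA from 500 ng of total RNA with a kit not described as strand-specific and sequenced single reads of 60 nt. The submitters' processing notes name CASAVA 1.8.2, cutadapt, RSEM 1.2.3 and GRCm38, without their roles. The deposited signal of each gene in a library is its CPM after TMM scaling. In every library 100% of the values were whole multiples of the value of 1 read (within 0.01 read). This gave the reads, 17089836 to 19944952 per library over the genes in the table. A table of plain CPM was planned for, but its columns do not have the fixed sum of plain CPM because of the TMM factors.

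The 12494 genes that reached 1 CPM in 2 or more libraries were fitted with limma 3.58.1 (R 4.3.3) on log2(CPM + 1), in 1 fit of 4 group means with a mean-variance trend and 4 residual degrees of freedom. All tests were two-sided, at a threshold of 0.05 after Benjamini-Hochberg adjustment. A fold change on the log2(CPM + 1) scale understates the change of low genes. The count tests of edgeR 4.0.16 and DESeq2 1.42.0 were run on the recovered reads as alternatives, beside other pseudocounts, filters and scalings, a replicate block and each library left out. The fit was tested on simulated data. Positions, lengths and overlaps are from GENCODE M21 (GRCm38), and promoters from RefSeq. A level per kb divides by the transcript length of the annotation, and shared windows are stretches of 60 nt of a gene that also occur in another listed gene.

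The members and gene lists were chosen with earlier results of these data known. All 9 members are named. From each further list, up to 3 genes were named, those with the largest genotype effect among genes called on both substrates with the same sign, a mean of at least 5 CPM and no overlap between genotypes. Results of 1 further gene of the HOX lists are not reported here. The 5 genes nearest to the Hoxa and to the Hoxb profile were named too.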

Additional observations from a re-analysis of the deposited data

Results flagged for a closer look

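No member passed the test for a difference between the stiffness effects of the genotypes. Of the other genes named by rule, 2 marker genes did, by limma with adjustment over 12494 genes. Prrx1, a fibroblast transcription factor, had a difference of -0.49 ± 0.10 between the effects (WT minus Cav1KO, log2(CPM + 1) scale, limma adjusted p = 0.0253), with stiffness effects of -0.67 in WT and -0.18 in Cav1KO cells. Of the 13 fibroblast markers tested, Prrx1 was the 1 called with a negative difference, and 4 others were called with a positive difference. Cd14, a macrophage marker that fibroblasts can also express, had a difference of -0.57 ± 0.15 (limma adjusted p = 0.0499), with effects of -0.43 in WT and 0.14 in Cav1KO cells.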

How the results depend on the processing

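The number of members without overlap between the genotypes was 6 and lay between 6 and 7 under 13 alternatives. Other pseudocounts cannot change an overlap, and leaving out a library can only remove one. Only the other scalings could therefore have lowered this number, and the members were picked on this difference. The 46 list genes called on both substrates lay between 36 and 47 under 12 alternatives. The sign of the Hoxa5 difference (Cav1KO minus WT), whose libraries overlap, turned when 1 library was left out, to 0.01 (without WT stiff replicate 2) and 0.02 (without Cav1KO stiff replicate 2) on stiff and to 0.0038 and 0.01 on soft substrates (without WT soft replicate 2 or Cav1KO soft replicate 1), and that of Hoxa6 on soft turned to -0.0043 without Cav1KO soft replicate 1. Scaling by plain library totals moved the median genotype difference of all genes on soft substrates from -0.03 to 0.07. In WT cells the 1 member called by limma became 2 with quantile normalization (Hoxa6 and Hoxa9, the latter at an adjusted p of 0.0499), 0 with edgeR and 0 with DESeq2, and 0 to 1 with 1 library left out. In Cav1KO cells the 2 members called became 1 with median centring (Hoxc13), with edgeR (Hoxb3) and with quantile normalization (Hoxa7, at 0.50 on the log2 scale and an adjusted p of 0.00458, in place of Hoxb3 and Hoxc13), 0 with DESeq2, and 0 to 2 with 1 library left out. For the difference between the stiffness effects, the 0 members called became 1 (Hoxa6) with quantile normalization and with limma without a trend. Over all genes, 6046 calls in WT cells ranged from 3913 (without WT soft replicate 1) to 6509 with 1 library left out, and the 1309 calls of the difference became 705 without a trend and ranged from 110 (without Cav1KO soft replicate 1) to 3436 (without Cav1KO stiff replicate 1). The causes were not tested. Hoxa6 and Hoxc13, near 1 CPM, are limited by depth, and stiffness effects of Hoxa9 and Hoxa10 in Cav1KO cells and of Hoxc13 in WT cells were not detectable.

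The labels share replicate numbers, and nothing says that a number marks a shared culture or day. The r of the deviations of same-numbered libraries was 0.42 for WT stiff with Cav1KO stiff, 0.14 for WT stiff with Cav1KO soft, 0.06 for Cav1KO stiff with Cav1KO soft, -0.04 for WT soft with Cav1KO soft, -0.24 for WT soft with Cav1KO stiff and -0.37 for WT stiff with WT soft. Not every value was over 0.1, so the numbers were not taken as pairs. With the replicate block, 1 and 2 members were called in WT and Cav1KO cells and 0 for the difference, with 5980, 6972 and 1324 genes in all and 47 list genes. Pairing the WT libraries crosswise, chosen after seeing the data, gave 6244 genes and 1 member in WT cells.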
